A study of Sus scrofa with 6 samples.

Results

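The numbered ZNF genes, those named ZNF and a number with an optional letter, encode most of the C2H2 zinc finger proteins of a mammalian genome. The deposited table of 18007 pig genes held 267 of them, and 180 had a mean of at least 1 FPKM (fragments per kilobase of gene length, scaled to the fragments of the library) over the 6 libraries. These 180 expressed genes, all annotated as protein-coding, are the members described here. The values that chose them were the means over all libraries, which ran from 1.02 to 47.8 FPKM with a median of 3.71, against a median of 8.80 for the 11318 genes of at least 1 FPKM. Just inside the threshold were *ZNF782* (1.02 FPKM), *ZNF280D* (1.02 FPKM) and *ZNF2* (1.04 FPKM), and just outside were *ZNF684* (0.983 FPKM), *ZNF79* (0.974 FPKM) and *ZNF227* (0.958 FPKM). Of the 180 members, 154 reached 1 FPKM in the means of both groups, 14 passed only through the reprogrammed cells and 12 only through the fibroblasts, and those that passed through 1 group had to differ between the groups to some degree.

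A C2H2 zinc finger is a short fold held by a zinc ion, and tandem arrays of such fingers read a DNA sequence. Many of these proteins also carry a KRAB domain, which binds the corepressor TRIM28 (KAP1), and TRIM28 in turn brings the H3K9 methyltransferase SETDB1 and HP1 proteins to the bound site. KRAB zinc finger genes lie in tandem clusters, silence transposable elements and hold imprints in early embryos and pluripotent cells. Other members have a SCAN domain, which pairs zinc finger proteins with each other, or have no such domain and act as promoter factors, chromatin partners or RNA-binding proteins.

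PEF5, PEF7 and PEF8 were porcine embryonic fibroblast lines from the ear tips of embryos taken at embryonic day 90. The embryos were of a Longwhite boar (Large White in the paper) and a Meishan sow. piPSC5, piPSC7 and piPSC8 were dox-dependent induced pluripotent stem cell lines derived from PEF5, PEF7 and PEF8 in that order with lentiviral Oct4, Sox2, Klf4 and cMyc (OSKM, under the TetO promoter) and the M2rtTA transactivator, picked as colonies on mouse feeder cells. Each line gave 1 poly-A RNA library, so the 3 PEF and 3 piPSC libraries measure the spread between lines, and no line has a replicate. The comparison asks how expression differed between the piPSCs and the fibroblasts they came from.

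Libraries held between 11010629 (piPSC8) and 17836510 (PEF5) fragments, and the median member had 210.5 fragments per library. Of 20 fibroblast markers, 17 were downregulated in piPSCs, and their summed level was 7818 to 11012 FPKM in PEFs and 481 to 688 FPKM in piPSCs. The pluripotency label had weak support at the RNA level. Of 16 pluripotency markers, 10 were among the rows used and 3 were tested, of which limma called 0 (2 higher at an unadjusted p under 0.05, and 2 higher and 1 lower with voom), with summed levels of 0.575 to 2.90 FPKM in PEFs and 2.96 to 9.16 FPKM in piPSCs. In piPSC5, piPSC7 and piPSC8, *NANOG* had 0, 1 and 0 fragments, *SALL4* had 6, 0 and 0, *SOX2* had 288, 188 and 9, and *LIN28B*, which made up most of the sum in piPSC8, had 204, 18 and 529. Of 9 neural progenitor markers, 6 were among the rows used and 5 were tested, of which 3 were higher (*ZIC2*, *NEUROG2* and *FABP7*). The other tested markers, *NES* (means of 7.07 FPKM in PEFs and 1.84 FPKM in piPSCs) and *PAX6* (3.04 and 2.28 FPKM), were lower and not called. The sum of the 6 was 6.37 to 17.9 FPKM in PEFs and 39.9, 50.5 and 7.03 FPKM in piPSC5, piPSC7 and piPSC8. The part of neural progenitor cells in the results was not tested. *DDX3Y*, a gene of the Y chromosome, had 3439 fragments in PEF8 and 4207 in piPSC8 and 0 in the libraries of lines 5 and 7. The row *XIST_intron* had 263 and 192 fragments in PEF5 and PEF7, 441 and 240 in piPSC5 and piPSC7, and 0 in both libraries of line 8. The paper describes the PEF lines as male.

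The expressed ZNF genes changed in both directions, and a smaller share of them was called than of all genes. With limma on log2(FPKM + 1), 21 members were upregulated in piPSCs and 16 were downregulated (2-fold or more, with a Benjamini-Hochberg adjusted p below 0.05). That is 20.6% of the members, where 38.9% of the genes of at least 1 FPKM were called (21.6% higher and 17.3% lower). Among the 154 members of 1 to 10 FPKM, 15 were higher and 15 lower (19.5%), against 34.6% of all genes in this range. Among the 154 members above 1 FPKM in both groups, 18 were called higher and 9 lower (17.5%). The median member moved by 0.48 on the log2 scale in either direction, against 0.86 for genes of at least 1 FPKM. The members' median change was 0.24 (log2), close to the 0.20 of all tested genes. In bulk RNA, a lower level can stand for fewer cells with the transcript or for less transcript per cell, and these cannot be told apart.

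The balance of the calls depended on scaling, in the members as in all tested genes. Rescaling each library to the median ratio moved the median of all genes from 0.20 to -0.01 and that of the members from 0.24 to 0.039. It gave 15 members higher and 20 lower (19.4% called, against 35.3% of all tested genes). Of the called members 42.9% were then higher in place of 56.8%, and of all called genes 42.6% in place of 54.8%. Rescaling to a sum of 1000000 gave 18 higher and 20 lower (21.1% called, against 38.6%) and a member median of 0.014. Of the called members 47.4% were then higher, and of all called genes 41.4%. Voom on the recovered fragments called 33 members higher and 15 lower (26.7%, against 42.1% of genes of at least 1 FPKM). Of the 37 called members, 27 (14 higher and 13 lower) were called under all 15 alternative settings, and all 37 moved the same way in all 3 pairs of lines. The groups did not overlap for 67 members higher in piPSCs (38.9% of genes of at least 1 FPKM did so) and for 26 lower (26.9%). At least a 2-fold change in all 3 pairs was seen for 15 members upward (14.0% of these genes) and 11 downward (12.9%).

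**Figure D1:**
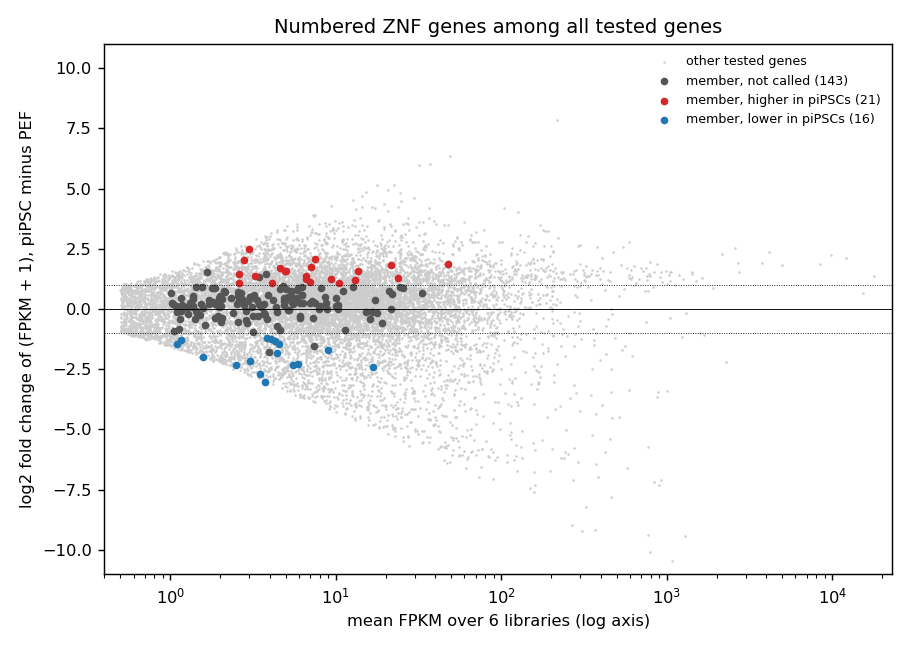
Each point is 1 tested gene, with the mean FPKM over the 6 libraries on a log axis and the limma log2 fold change of (FPKM + 1), piPSC minus PEF, on the other axis; dotted lines mark a 2-fold change. Other genes are grey, and the 180 members are dark where not called, red where higher in piPSCs (21) and blue where lower (16); most members sit close to 0.

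The largest increase was that of *ZNF711* (ENSSSCG00000021601, chrX:68475692-68499329, plus strand, Sscrofa11.1), a promoter factor that works with the histone demethylase PHF8 and is mutated in X-linked intellectual disability. It stood at 0.195, 0.0198 and 0.437 FPKM in PEF5, PEF7 and PEF8 (21, 2 and 40 fragments) and at 6.14, 5.71 and 5.52 FPKM in piPSC5, piPSC7 and piPSC8. *ZNF711* was thus low in every fibroblast line and at about the same level in every piPSC line, with a log2 fold change of 2.49 (SE 0.22, adjusted p = 0.000438, limma). With a PEF mean under 1 FPKM it was a member only through the piPSCs, so the choice of members itself required a high piPSC level. *ZNF662*, which has a KRAB domain in the table's Pfam column, rose from 2.64, 2.16 and 1.89 to 13.7, 9.77 and 14.5 FPKM (log2 fold change 2.07, SE 0.22). *ZNF483*, a SCAN gene, rose from 0.563, 0.429 and 0.474 to 6.12, 4.32 and 4.74 FPKM (2.02, SE 0.21). For both genes the lowest piPSC value was far above the highest PEF value, and *ZNF483*, like *ZNF711*, was a member only through the piPSCs. *ZNF664* was the most abundant member, and went from 19.98, 20.4 and 19.4 FPKM in PEFs to 69.0, 91.0 and 66.9 FPKM in piPSCs (log2 fold change 1.86, SE 0.16, adjusted p = 0.000441).

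*ZNF277*, which has been tied to Polycomb and ribosomal proteins, rose from 8.16, 11.5 and 7.49 to 36.4, 41.1 and 25.7 FPKM (log2 fold change 1.81, SE 0.24). *ZNF507* rose by 1.76 (SE 0.24), *ZNF608* by 1.70 (SE 0.25) and *ZNF692* by 1.60 (SE 0.22) on the log2 scale, and in each the 3 piPSC libraries lay above the 3 PEF libraries. Of 7 members on chromosome X, 3 were called higher and 1 lower (57.1%, against 38.9% of the genes of at least 1 FPKM). *ZNF75D* on chromosome X rose from 5.87, 7.02 and 6.34 to 20.1, 21.8 and 20.6 FPKM. *ZNF280C* on chromosome X rose from 2.65, 1.62 and 1.67 to 7.43, 5.58 and 10.98 FPKM. Line 8, the line with *DDX3Y* fragments, stood with the other lines for *ZNF711*, *ZNF75D* and *ZNF280C*. It stood apart for *ZNF275*, the called decrease, which had 137, 274 and 1 fragments in piPSC5, piPSC7 and piPSC8. *ZNF451*, a SUMO ligase, rose from 3.95, 3.30 and 2.67 to 10.4, 9.08 and 10.4 FPKM (log2 fold change 1.35, SE 0.19, adjusted p = 0.00192).

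Further increases were seen for *ZNF346*, whose protein binds double-stranded RNA (3.60, 3.49 and 3.36 FPKM in PEFs, 9.58, 8.22 and 11.5 FPKM in piPSCs), and for *ZNF16* (14.3, 14.4 and 11.5 against 35.3, 31.9 and 34.6 FPKM). *ZNF746* encodes PARIS, a parkin substrate that represses the coactivator PGC-1alpha. Its 3 PEF values of 6.31, 6.83 and 5.99 FPKM lay below its piPSC values of 14.6, 16.2 and 13.2 FPKM, and its log2 fold change of 1.08 was 0.83 with the median-ratio scaling and 0.84 with the sum scaling, both under the 2-fold limit. *ZNF462*, a developmental factor that recruits the H3K9 methyltransferase EHMT2, had 1.01, 0.293 and 1.24 FPKM in PEFs and 3.60, 7.07 and 2.34 FPKM in piPSCs. *ZNF462* was a member only through the piPSCs. Its adjusted p was 0.0197, but 0.0549 with the line as a block, 0.0642 without PEF7 and 0.0520 without piPSC5. *ZNF518B*, another partner of EHMT2, had 4.99, 4.52 and 4.47 FPKM in PEFs and 18.7, 17.5 and 5.59 FPKM in piPSCs, so piPSC8 stayed near the fibroblast level. Its call (adjusted p = 0.0467) was lost without any one of the PEF libraries, piPSC5 or piPSC7, under both rescalings and with no filter on low values, with adjusted p of 0.0762 to 0.142.

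*ZNF853* showed the largest decrease (ENSSSCG00000037890, chr3:4586809-4591147, minus strand). It had 8.13, 7.01 and 7.06 FPKM in PEF5, PEF7 and PEF8, which is 296, 239 and 218 fragments, and 1 fragment in each piPSC library. Against the floor of 3 fragments per library the level was at least 62.5-fold lower in piPSCs (adjusted p = 0.000207, limma). *ZNF134* on chromosome 6 fell from 6.60, 6.64 and 7.02 FPKM to 0.758 FPKM in piPSC5, and had 0 fragments in piPSC7 and piPSC8. *ZNF667*, also on chromosome 6 and with a KRAB domain, fell from 4.11, 5.14 and 5.22 to 0.319, 0.128 and 0.0459 FPKM. In these 3 genes every fibroblast line was high and every piPSC line was low or silent. All 3 had piPSC means under 1 FPKM and were members only through the PEFs, so the choice of members itself required a high PEF level.

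*ZNF703* and *ZNF503* are paralogous corepressors that act with TLE proteins in patterning and epithelial growth. *ZNF703* had 28.6, 28.2 and 30.0 FPKM in PEFs and 5.03, 4.43 and 4.70 FPKM in piPSCs, a mean of 28.9 ± 0.95 against 4.72 ± 0.30 (SD, n = 3). Its log2 fold change was -2.39 (SE 0.14, adjusted p = 0.000179, limma). *ZNF503* had 9.87, 12.6 and 8.86 FPKM in PEFs and 0.787, 2.23 and 1.13 FPKM in piPSCs (-2.30, SE 0.28). Both members of the pair were thus downregulated in all 3 lines. *ZNF697* went from 12.1, 9.25 and 8.39 to 0.623, 1.49 and 1.51 FPKM. *ZNF467*, a factor in the choice between fat and bone cells, went from 3.22, 4.42 and 9.24 to 0.195, 1.18 and 0.0532 FPKM. *ZNF469*, which is mutated in brittle cornea syndrome, a connective tissue disorder, went from 4.12, 2.94 and 2.34 to 0.0988, 0 and 0.00794 FPKM. *ZNF467* and *ZNF469* were also members only through the PEFs.

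**Figure D2:**
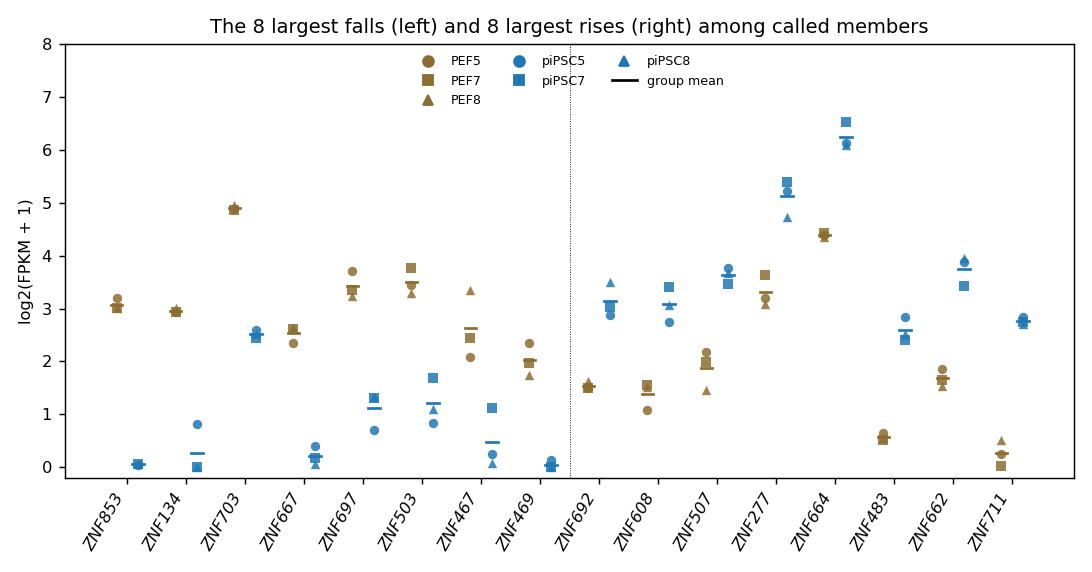
Each marker is the log2(FPKM + 1) of 1 library (PEF brown, piPSC blue; circle, square and triangle for lines 5, 7 and 8), and bars are group means of 3 libraries. The 8 members with the largest falls are on the left and the 8 with the largest rises on the right, and in each of the 16 the 3 PEF markers and the 3 piPSC markers do not overlap. ZNF853, ZNF134, ZNF667, ZNF467 and ZNF469 were members only through their PEF values, and ZNF711 and ZNF483 only through their piPSC values.

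Other decreases were of *ZNF219*, a partner of SOX9 in cartilage (9.96, 14.4 and 18.4 FPKM in PEFs, 3.93, 5.10 and 2.21 FPKM in piPSCs), and of *ZNF395* (6.51, 8.66 and 4.57 against 1.80, 2.64 and 1.61 FPKM). *ZNF473*, which works in the 3′ processing of histone mRNA, fell from 1.36, 1.02 and 4.09 FPKM to 0.143, 0.0165 and 0 FPKM, and was a member only through the PEFs. *ZNF174*, a SCAN gene, had 4.67, 5.79 and 7.54 FPKM in PEFs and 3.29, 2.06 and 0.869 FPKM in piPSCs. Its adjusted p was 0.0229 and rose to 0.0563 with the line as a block, 0.0634 without PEF7, 0.0741 without PEF8 and 0.0502 without piPSC7, and its fold change was under 2 without piPSC8. *ZNF436* lost its call with the block as well (adjusted p 0.0375, and 0.0661 with the block), and without any one library other than PEF7 (0.0521 to 0.0913), with voom (0.0605) and with no filter on low values (0.0709). *ZNF521*, an EBF1 antagonist of mesenchymal and neural progenitors, had 14.2, 16.6 and 4.15 FPKM in PEFs and 3.67, 1.20 and 4.33 FPKM in piPSCs, and was not called (adjusted p = 0.0542). Line 8 had the same level of *ZNF521* before and after reprogramming, and without PEF8 the gene was called (log2 fold change -2.11, adjusted p = 0.0144), as it was under both rescalings (adjusted p 0.0363 and 0.0389).

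Of the 40 members with a role given in a list of known functions, 7 were called higher (*ZNF711*, *ZNF462*, *ZNF451*, *ZNF280C*, *ZNF518B*, *ZNF346* and *ZNF277*) and 4 lower (*ZNF703*, *ZNF503*, *ZNF219* and *ZNF395*), which is 27.5%, against 38.9% of the genes of at least 1 FPKM. By class, these were 2 higher and 4 lower of 18 promoter and enhancer factors, 3 higher of 10 chromatin and imprinting factors, and 2 higher of 12 RNA, ribosome and spindle proteins. Several well-known factors moved little. *ZNF281*, a regulator of pluripotency genes, had 20.02, 14.4 and 17.7 FPKM in PEFs and 13.99, 17.5 and 15.9 FPKM in piPSCs (log2 fold change -0.12, SE 0.18). *ZNF143*, a promoter-binding factor linked to chromatin loops, had 2.43, 2.50 and 2.81 against 3.13, 3.12 and 2.75 FPKM (0.16, SE 0.18). For both genes the libraries of the groups overlapped.

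Smaller increases under the 2-fold limit passed the test of significance for some abundant members, in part depending on the scaling. *ZNF384* rose from 25.5, 24.9 and 26.3 to 41.5, 36.2 and 44.7 FPKM (log2 fold change 0.65, adjusted p = 0.00962, limma), but its adjusted p was 0.0763 with the median-ratio scaling and 0.101 with the sum scaling (fold changes of 0.38 and 0.34). *ZNF207* (BuGZ), a spindle and kinetochore protein, rose from 18.2, 15.7 and 18.4 to 37.2, 27.2 and 35.6 FPKM (0.89). *ZNF598*, the ubiquitin ligase that senses collided ribosomes, rose from 14.9, 15.05 and 20.01 to 31.6, 25.3 and 40.2 FPKM (0.91), with an adjusted p of 0.0140 that was 0.0560 and 0.0603 under the rescalings. *ZNF445*, which protects imprints, had 1.79, 1.66 and 2.05 FPKM in PEFs and 4.13, 2.82 and 3.56 FPKM in piPSCs (0.66, adjusted p = 0.0357). Its adjusted p was 0.0611 with the line as a block, 0.0732 with no filter, 0.0936 and 0.142 under the rescalings, and 0.0604 to 0.117 without any one library other than piPSC7. At any fold, 45 members were significantly higher and 19 lower, where 54.4% of the genes of at least 1 FPKM were significant.

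The members fall into classes by protein and by position. A RefSeq protein was found for 169 members (161 by symbol and 8 by position), with a median of 8 C2H2 fingers and a range of 0 to 35. A KRAB domain in the Pfam column of the table marked 51 members, of which 3 were higher and 3 lower (11.8%), and 18 were higher and 13 lower among the other 129 (24.0%). These shares, and those of the classes that follow, lie below the 38.9% called among genes of at least 1 FPKM. Their median log2 fold changes were 0.12 and 0.34. By a KRAB pattern in the RefSeq protein, 2 of 40 members were higher and 1 was lower (7.5%), and of 129 without it 17 were higher and 15 lower (24.8%), with medians of 0.20 and 0.25. These medians were 0.015 and 0.040 with the median-ratio scaling, and -0.043 and 0.028 with the sum scaling. Both definitions marked 33 members and either marked 58, so members without KRAB by one definition can carry it by the other. The KRAB members were expressed at a lower level (median of 2.49 FPKM by Pfam against 4.61), and the part of level in the difference was not tested. Of 15 members with a Pfam SCAN domain, 4 were higher (*ZNF483*, *ZNF75D*, *ZNF496* and *ZNF18*) and 1 was lower (*ZNF174*), which is 33.3%. *ZNF496* and *ZNF18* fell under 2-fold in both rescalings and without piPSC5, and *ZNF496* also without PEF8 (0.94 on the log2 scale). Of the 97 members with another numbered ZNF row within 500 kb, 6 were higher and 7 lower (13.4%), and of the 83 without one 15 were higher and 9 lower (28.9%).

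**Figure D3:**
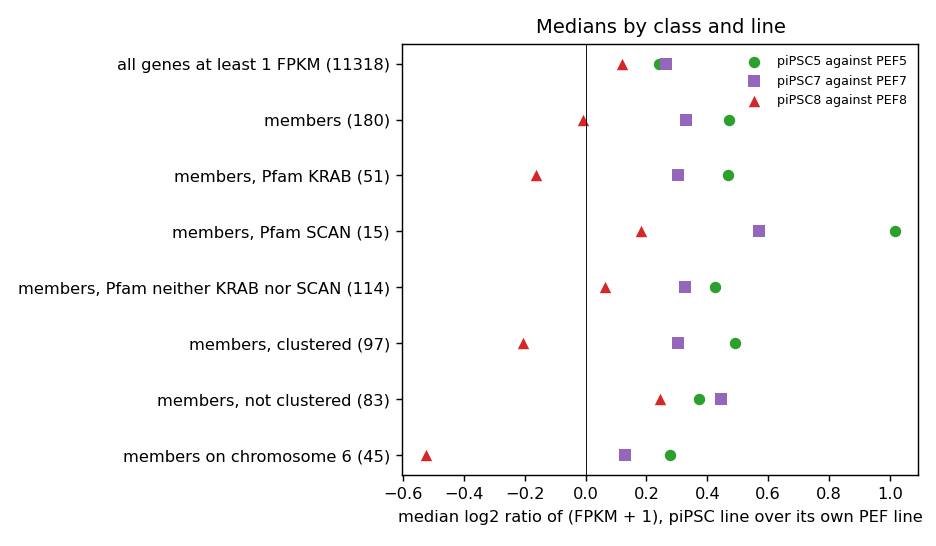
Each marker is the median log2 ratio of (FPKM + 1) of 1 piPSC line over its own PEF line (circle line 5, square line 7, triangle line 8) for the class on the left, with the number of genes in brackets. Lines 5 and 7 lie above 0 for every class, and line 8 lies lowest for each. It is below 0 for KRAB, clustered and chromosome 6 members, and just below 0 (-0.009) for all members.

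Line 8 stood apart from the others. Of the 180 members, 141 were higher in piPSC5 than in PEF5, 127 were higher in piPSC7 than in PEF7 and 89 were higher in piPSC8 than in PEF8. The median log2 ratios were 0.47, 0.33 and -0.01, where genes of at least 1 FPKM had 0.24, 0.27 and 0.12. At least 2-fold higher were 33, 31 and 27 members (22.7%, 25.8% and 25.0% of genes of at least 1 FPKM), and at least 2-fold lower were 15, 16 and 36 (19.3%, 17.9% and 23.9%). Without piPSC8, limma called 26 members higher and 14 lower, and the members' median rose to 0.42. The medians by line for KRAB members (Pfam) were 0.47, 0.30 and -0.16, for clustered members 0.49, 0.30 and -0.20, and for the 45 members on chromosome 6 they were 0.28, 0.13 and -0.52. Members without a neighbour within 500 kb had 0.37, 0.44 and 0.25.

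On the scale of (FPKM + 1), 27 members (15.0%) were at least 2-fold lower in piPSC8 than in both piPSC5 and piPSC7, against 5.99% of the genes of at least 1 FPKM and 6.56% of those of 1 to 10 FPKM. The same count was 0 for piPSC5 and 2 for piPSC7, and no PEF library had more than 1 such member. With 1 library per line this has no test, and the criterion was chosen after the values were seen. Of the 27, 22 were clustered (22.7% of the clustered members, and 6.02% of the others), 13 lay on chromosome 6 (28.9% of its 45 members, against 6.07% of 1169 other genes there) and 12 had a Pfam KRAB domain (23.5% of 51, against 11.6% of the rest). By the KRAB pattern the shares were closer, with 8 of 40 members (20.0%) against 12.4% of the 129 without it. With a pseudocount of 0.1 the criterion was met by 39 members (21.7%, against 11.14% of genes), and with the rescalings by 21 (11.7% against 5.17%) and 33 (18.3% against 8.56%).

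*ZNF140* (chr14:22533917-22542728, minus strand), a KRAB gene, was the clearest case. It had 5.06, 5.90 and 5.85 FPKM in PEF5, PEF7 and PEF8, rose to 10.8 and 8.69 FPKM in piPSC5 and piPSC7, and stood at 0.192 FPKM in piPSC8, from 5 fragments. *ZNF532*, a partner of the ZNF592 protein, had 546 and 582 fragments in piPSC5 and piPSC7 and 5 in piPSC8, where PEF8 had 232. *ZNF23* on chromosome 6 had 99 and 87 fragments against 2, where PEF8 had 142. The drop in these genes was in 1 piPSC line, and limma called none of the 3. In a row of neighbours on chromosome 6, *ZNF382* (chr6:45776181-45812338) had 106, 107 and 3 fragments in piPSC5, piPSC7 and piPSC8, *ZNF260* (chr6:45859484-45880709) had 374, 252 and 12, and *ZNF566* (chr6:45894254-45927769) had 54, 44 and 2. *ZNF175* and *ZNF112*, further along the chromosome, had 52 and 47, and 30 and 23, fragments in piPSC5 and piPSC7 and 0 in piPSC8, where a count of 0 allows up to 3 fragments. *ZNF275* on chromosome X fell in all lines, from 7.69, 7.07 and 6.46 to 1.47, 3.71 and 0.0146 FPKM, and its call (adjusted p = 0.0270) was lost without any one of PEF5, PEF7, PEF8 and piPSC5 (adjusted p 0.0646 to 0.0789), with a pseudocount of 0.1, with no filter and with voom (0.0524 to 0.0763).

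**Figure D4:**
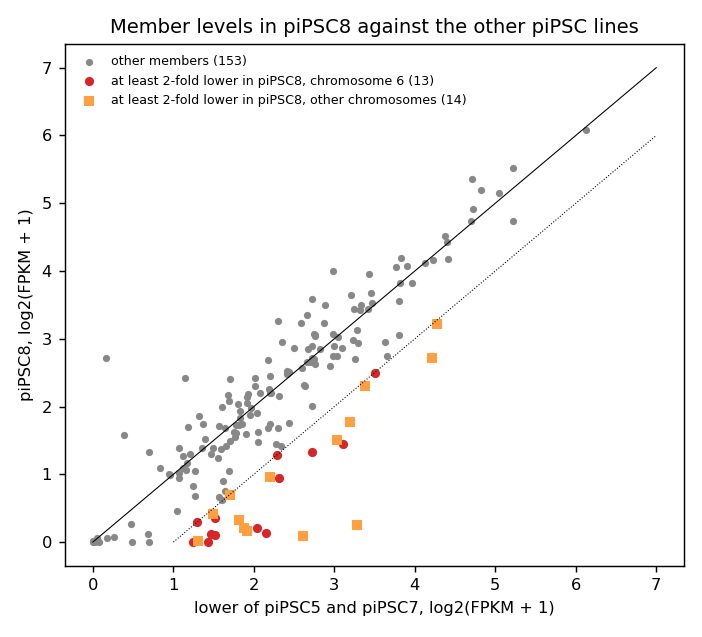
Each point is 1 member, with the lower of its log2(FPKM + 1) values in piPSC5 and piPSC7 on one axis and its value in piPSC8 on the other; the full line marks equal values and the dotted line a 2-fold lower value in piPSC8. The 27 members at least 2-fold lower are red on chromosome 6 (13) and orange elsewhere (14), and several of them sit at or near 0 in piPSC8.

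A separate view counts members with at most 3 fragments, whatever their level in the other piPSC lines. There were 1 in piPSC5, 5 in piPSC7 and 17 in piPSC8 (9.44%), where 2.68%, 4.13% and 6.69% of genes of at least 1 FPKM were at this floor. Of the other genes of 1 to 10 FPKM, the range that holds 154 of the members, 10.4% were at the floor in piPSC8, so the members' share was not above that of genes of like level. Of the 17, 13 lay on chromosome 6, which is 28.9% of its members, against 7.70% of the other chromosome 6 genes of at least 1 FPKM and 12.9% of those of 1 to 10 FPKM. All 17 had between 28 and 607 fragments in PEF8. Only 6 of the 17 also met the criterion of a 2-fold lower level in piPSC8 than in piPSC5 and piPSC7. Others, such as *ZNF853*, *ZNF134* and *ZNF667*, were low or silent in every piPSC line and were called lower, so the 17 are not a set specific to piPSC8. piPSC8 was the shallowest library (11010629 fragments, and 11892011 in piPSC7), and the part of depth in these counts was not tested. Among the 17, *ZNF226* had 84 fragments in PEF8, 45 in piPSC5, 15 in piPSC7 and 0 in piPSC8, and *ZNF8* had 80, 144, 14 and 0.

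A sequence feature that the rule did not use was more frequent in the start regions of the members than in all start regions, expressed or not. Windows of 300 bases, from 250 before to 50 after the RefSeq gene start on Sscrofa11.1, were read for 169 members and for 19545 genes in all. The RefSeq start can lie away from the start in the deposited table, as for *ZNF134* and *ZNF853*. The core bound by ZNF143 (ACTACA and TCCC with any 2 bases between them), on either strand, was in 17 member windows (10.1%), against 2.39% of all windows. The ETS core CCGGAAG was in 18.9% against 11.00%. The NRF1 site (GCGCA followed by TGCGC) was in 2.37% against 1.12%, a larger relative difference than that of the ETS core, but in only 4 member windows. The YY1 core AANATGGCG (1.78% against 2.71%), the octamer ATGCAAAT (1.18% against 1.39%) and the CCAAT box (31.4% against 35.4%) were less frequent in member windows. Member windows had a median GC content of 62.0% and 21 CpG, and all windows 58.7% and 16 CpG. The members were chosen as expressed genes, while all windows were taken without regard to expression. The parts of expression and of base composition in these shares were not tested, and a match is not evidence of binding. None of the 17 matches overlapped another of the motifs.

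To show the core beside the values above, 6 of the 17 matches are given with the core in capitals, read on the strand of the match. *ZNF277* and *ZNF451* were called higher, *ZNF174* was called lower, *ZNF566* and *ZNF112* were low in piPSC8, and *ZNF569* was significantly higher under the 2-fold limit.
ZNF277 (chr18:33423178-33423197, minus-strand gene, core on the opposite strand to the gene): cagaACTACAATTCCCagtg
ZNF451 (chr7:28765489-28765508, minus-strand gene, core on the gene's strand): cagaACTACAGTTCCCagcg
ZNF174 (chr3:38815327-38815346, minus-strand gene, core on the gene's strand): gcggACTACAACTCCCggag
ZNF566 (chr6:45893892-45893911, plus-strand gene, core on the gene's strand): cctaACTACACTTCCCagga
ZNF112 (chr6:50944040-50944059, minus-strand gene, core on the opposite strand to the gene): ccggACTACACTTCCCgaaa
ZNF569 (chr6:46436607-46436626, minus-strand gene, core on the opposite strand to the gene): ccggACTACATTTCCCagag

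Of the 17 members with the core, 2 were called higher and 1 lower, where 20.6% of all members and 38.9% of genes of at least 1 FPKM were called. Of the same 17, 5 were low in piPSC8, where 15.0% of all members, 22.7% of clustered members and 5.99% of these genes were. A link between the core and the level in piPSC8 was not tested. The median log2 fold change of the members with the core was 0.35, against 0.24 for the 152 without it. The genes with the largest rise and the largest fall had start regions of unlike composition, which are given in full on the strand of the gene, with the CCAAT box in capitals, which reads ATTGG where it lies on the other strand. The region of *ZNF711* (chrX:68475262-68475561, plus strand) was 53.0% GC with 12 CpG, and that of *ZNF853* (chr3:4592385-4592684, minus strand) was 89.3% GC with 61 CpG and no CCAAT box.
ZNF711: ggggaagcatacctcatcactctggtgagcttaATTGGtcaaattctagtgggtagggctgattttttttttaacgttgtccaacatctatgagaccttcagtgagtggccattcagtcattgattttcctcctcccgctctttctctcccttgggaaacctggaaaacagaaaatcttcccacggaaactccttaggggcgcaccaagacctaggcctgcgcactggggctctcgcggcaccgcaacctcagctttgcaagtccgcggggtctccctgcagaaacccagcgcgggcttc
ZNF853: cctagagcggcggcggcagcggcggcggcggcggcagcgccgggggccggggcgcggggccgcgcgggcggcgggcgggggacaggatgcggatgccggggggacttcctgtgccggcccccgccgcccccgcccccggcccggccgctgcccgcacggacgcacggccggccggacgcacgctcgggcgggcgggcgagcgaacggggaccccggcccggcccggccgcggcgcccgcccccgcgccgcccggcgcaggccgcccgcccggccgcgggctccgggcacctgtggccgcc

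Some genes of a list built around the corepressor TRIM28 were upregulated. The list also held SUMO proteins and other H3K9 and DNA methyltransferases, which are not particular to KRAB zinc finger proteins. Of its 24 genes, 22 were tested, and limma called 6 higher (27.3%) and 0 lower, where 20.2% of all tested genes were called higher. At an unadjusted p under 0.05 in limma 12 were higher and 0 lower, and voom called 7 higher and 0 lower. Whether the share differed from that of all genes was not tested. *TRIM28* had 30.7, 30.0 and 24.8 FPKM in PEFs and 87.8, 89.4 and 74.6 FPKM in piPSCs (means of 28.5 ± 3.23 against 83.9 ± 8.13, SD, n = 3). Its fold change was 1.53 on the log2 scale (SE 0.15). *SETDB1* had 1.67, 1.80 and 2.12 against 7.07, 7.03 and 7.90 FPKM (1.54, SE 0.18). *CBX1*, which encodes HP1 beta, rose from 13.7, 10.2 and 13.5 to 46.7, 84.8 and 39.6 FPKM. In these 3 genes each piPSC library lay above every PEF library. The H3K9 methyltransferases *SUV39H1* (0.890 against 4.79 FPKM in the group means) and *SUV39H2* (2.26 against 8.47) and the maintenance methyltransferase *DNMT1* (6.21 against 25.8) were also higher. *EHMT2* (23.4 against 22.9 FPKM), *MORC2* (15.3 against 8.93) and *MORC3* (5.05 against 5.00) were not called. The median change of the 22 genes was 0.72 (log2), against 0.20 for all tested genes.

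**Figure D5:**
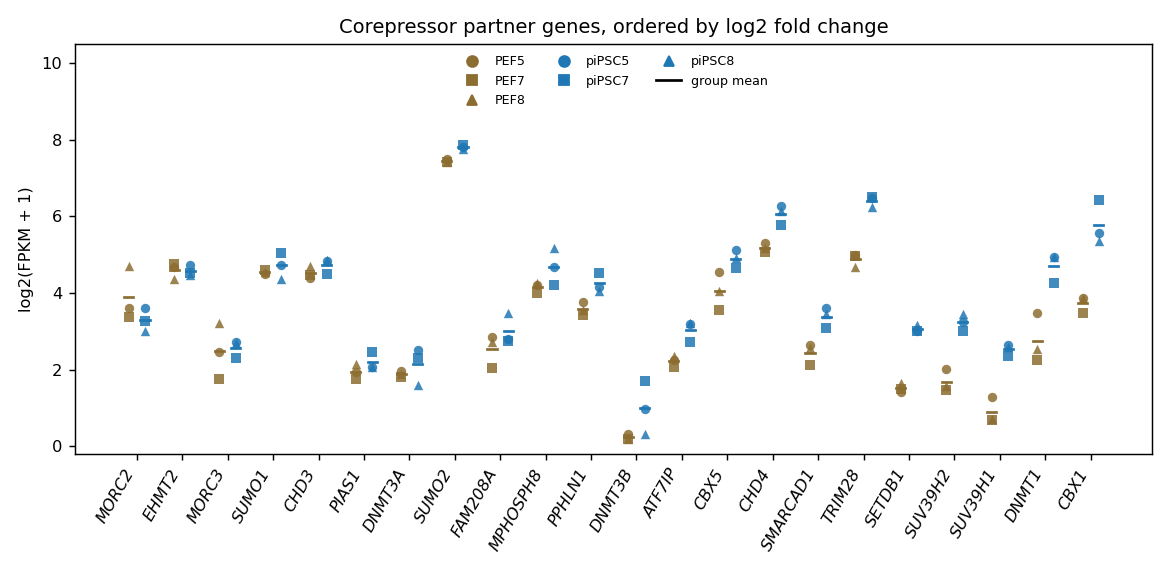
Each marker is the log2(FPKM + 1) of 1 library (PEF brown, piPSC blue; circle, square and triangle for lines 5, 7 and 8) for the 22 tested corepressor partner genes, ordered by log2 fold change, and bars are group means of 3 libraries. The 6 genes on the right, from TRIM28 to CBX1, were called higher in piPSCs, and in each the 3 piPSC markers lie above the 3 PEF markers.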

How the data were processed

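Poly-A RNA libraries of 3 PEF and 3 piPSC lines, read as 150 bp pairs, were compared. The authors deposited FPKM values per gene. The submitters' processing notes list HISAT2 2.1.0, Bowtie2 2.2.3, HTSeq 0.6.0 and the build Sscrofa11.1, and how fragments shared by near-identical zinc finger genes were counted is not given in the sources used here. The kit does not mark strand, so antisense overlaps cannot be told apart, nor can fragments of the mouse feeder cells. FPKM values were whole multiples of 1 fragment (within 0.01) for 18007 of 18007 genes, from which fragments were recovered. Counting limits cover counting error only.

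Genes with a mean of at least 0.5 FPKM (12428) were fitted on log2(FPKM + 1) with limma 3.58.1 in R 4.3.3 (trend, unpaired, two-sided, Benjamini-Hochberg), and a call needed an adjusted p below 0.05 and a 2-fold change. Fold changes on this scale understate the change of low genes. No exact permutation test was run, since 3 values against 3 allow no p below 0.1. The fit was tested on simulated data with the same setting of spread for every gene and 200 planted changes of 2-fold or 4-fold. It called 114 of them (57.0%), with 96 of 111 at 4-fold, and 5 other genes. Most of the missed changes were of 2-fold. A planted 2-fold change sits at the limit for a call, so many are missed by construction and the 57.0% is not a general sensitivity. PEF and piPSC libraries of a number share an animal, and their deviations from group means correlated at 0.0921, 0.0946 and 0.0800, against -0.121 to 0.0553 for other pairs, so a fit with the line as a block was also made.

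Members, lists and classes were chosen with earlier results of these data known. Genes named are the 8 largest rises and falls among called members that moved alike in all 3 pairs, the 5 most abundant, those beside the threshold, role-list members, called partner genes, and members 2-fold higher in 1 line and lower in another. Other members named were chosen after their values were seen. One gene of the partner list is not reported here and was left out of its counts. Protein features and start regions come from RefSeq on Sscrofa11.1, the same build as the table. Alternatives were the block, a pseudocount of 0.1, 2 filters, 3 normalizations, no trend, voom (added after the values were seen) and leaving out each library. Python 3.11.15, pandas 2.3.3 and Biopython 1.88 were used for the rest.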

Additional observations from a re-analysis of the deposited data

Results flagged for a closer look

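*ZNF25* (chromosome 14, KRAB) moved in opposite directions between lines. Its log2 ratio of (FPKM + 1), piPSC over its own PEF, was 0.58 in line 5, 1.12 in line 7 and -1.41 in line 8. It had 144 and 174 fragments in piPSC5 and piPSC7 and 6 in piPSC8, where PEF8 had 112. It was the 1 member at least 2-fold higher in one line and at least 2-fold lower in another. The difference between lines was not tested, since each line has 1 library per state.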

How the results depend on the processing

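Leaving out each library in turn gave 17 to 26 members higher, 14 to 17 lower, member medians of 0.19 to 0.42 (KRAB pattern 0.11 to 0.43, no pattern 0.22 to 0.39), 6 to 8 partner genes higher and 0 lower, and 2213 to 2623 genes higher and 1836 to 2066 lower among all tested; the ends at 26, 0.42 and 0.43 were without piPSC8, and the KRAB pattern median was 0.11 without piPSC7 and 0.13 without piPSC5. Leaving out a pair gave 17 to 21 members at least 2-fold higher and 12 to 13 lower in the remaining pairs. With the line as a replicate block, 20 members were higher and 14 lower, and 34 calls of 37 were kept; only *ZNF462*, *ZNF174* and *ZNF436* changed call among the members. Voom gave 33 members higher and 15 lower, with 35 of the 37 kept. The median without a KRAB pattern moved to 0.040 with the median ratio and 0.028 with the sum scaling, that with the pattern to 0.015 and -0.043, and that of all members to 0.039 and 0.014, and the count at least 2-fold higher in all pairs to 9 with the median ratio. At 4-fold it was 1 higher and 4 lower. The cause of these shifts was not tested, other than the shift of the median of all genes by the scaling itself. Of the members and partner genes named by rule, 805 comparisons with an alternative kept their call or lack of one, 10 gained a call and 11 lost it. The losses were of *ZNF518B* (8) and *ZNF462* (3). Direction was not always kept for small changes that were not called. The fold changes of *ZNF143* and *ZNF148* turned from positive to negative with the median-ratio and the sum scaling. Low depth limits what can be said of members at or under 3 fragments.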

Other observations

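Genes named ZFP, ZBTB, ZSCAN or ZKSCAN and a number were called less often than all tested genes, of which 36.8% were called. Of 33 tested ZBTB genes, which pair zinc fingers with a BTB domain, *ZBTB44* was higher in piPSCs (3.72, 3.82 and 3.07 FPKM in PEFs, 11.4, 8.30 and 10.4 FPKM in piPSCs) and 5 were lower (18.2% called). *ZBTB7B*, known as a switch of T cell fate, fell from 25.3, 19.2 and 32.8 to 2.47, 4.75 and 2.50 FPKM (log2 fold change -2.67, adjusted p = 0.000818, limma), and *ZBTB4*, which binds methylated DNA, fell from 9.19, 11.13 and 11.5 to 1.09, 2.50 and 0.122 FPKM. The other decreases were of *ZBTB47*, *ZBTB38* and *ZBTB7C*. Of 11 tested ZFP genes, only *ZFP36*, whose protein destabilises AU-rich mRNA and is not of the C2H2 type, was called, as lower (9.09%). Limma called 0 of 9 ZSCAN and 0 of 4 ZKSCAN genes (1 and 2 higher at an unadjusted p under 0.05, and 1 and 2 higher with voom).

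Of the 87 numbered ZNF rows under 1 FPKM, 34 were tested, and 3 were lower in piPSCs. Their median log2 ratio in line 8 was -0.72, against -0.15 in line 5 and -0.04 in line 7.

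Among members that were not called, 5 had at least a 2-fold change in the fit (*ZNF385B*, *ZNF521*, *ZNF367*, *ZNF396* and *ZNF804A*), with adjusted p of 0.0542 to 0.104. *ZNF396*, a SCAN gene on chromosome 6, went from 130, 47 and 95 to 581, 366 and 77 fragments, so the increase was in lines 5 and 7, and it was called without piPSC8 (log2 fold change 2.05, adjusted p = 0.00471) and with quantile normalization (adjusted p = 0.0276).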
